A study of Homo sapiens with 5 samples.

Results

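The mock-transfected library of a HEK293 series was described alone, as the baseline transcriptome of the line. It is 1 of 5 libraries, and it was taken by its label as the control sample. All 5 libraries are poly(A) RNA of the HEK293 line labelled T-Rex FLP-IN with FLAG:DICER1, harvested 18 h after transfection. The other 4 received siRNAs, 2 against DICER1 and 2 against DROSHA, the enzymes that cut microRNA precursors in the cytoplasm and in the nucleus. They serve here only to show how far a level taken from 1 library moved between libraries of the line, and no groups were compared. They are knockdowns and not repeats of the mock. Their range therefore mixes effects of the siRNAs with differences between libraries. Every library, the mock included, carries the FLAG:DICER1 construct, and the labels say neither whether its expression was induced nor whether the line is 1 clone. DICER1 stood at 2044 reads in the mock (241 CPM), DROSHA at 1610 reads (189 CPM), and DGCR8, the RNA-binding partner of DROSHA, at 1025 reads (121 CPM). Reads of the construct and of the endogenous DICER1 gene cannot be told apart in these counts. Over the siRNA libraries DICER1 ranged from 68.0 to 334 CPM and DROSHA from 41.1 to 195 CPM.

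HEK293 cells descend from human embryonic kidney cultures transformed with sheared adenovirus DNA, and they are a standard host for transfected receptors and channels. A differentiated kidney runs along segments, each known by its own transporters and channels. Podocytes filter, the proximal tubule reabsorbs, the thick ascending limb and distal tubule recover salt, and the collecting duct recovers water under vasopressin. The embryonic cell from which the line arose has long been debated, since the line is known to express genes of neurons beside genes of epithelia. Levels are given as CPM, the reads of a gene per 1000000 counted reads, with an exact Poisson 95% interval that covers counting error only. CPM is not corrected for gene length, so an order by CPM is an order of reads. Where levels of different genes or lists are set against each other, TPM is given too, computed here as reads per kilobase of merged GENCODE 29 exons scaled to 1000000. The mock is a single library with no replicate, so no value has a replicate error and no test was made. In bulk RNA, fewer cells of a type and less RNA per cell cannot be told apart.

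The mock held 8497016 counted reads over 18257 gene symbols, of which 99.0% are protein-coding in GENCODE 29. The siRNA libraries held 7620206 to 8736455. In the mock, 1 CPM equals 8.50 reads, and a count of 0 allows a level of up to 0.353 CPM (3 reads, a one-sided 95% limit, unlike the two-sided intervals). Low counts were not always a sign of a silent gene. Of 161 genes between TRIM27 and ZBTB9 on chromosome 6, the stretch that holds the major histocompatibility complex, 126 (78.3%) had 0 reads and 15 (9.32%) reached 1 CPM. Genes used by nearly every cell were among those at 0 there, including RPS18 of the small ribosomal subunit, the aminoacyl-tRNA synthetase VARS, the splicing proteins LSM2 and DDX39B, the kinase subunit CSNK2B and the prefoldin subunit PFDN6. The bromodomain gene BRD2 had 1 read and the main beta-tubulin gene TUBB had 8 reads. A 0 in this stretch is therefore not read as absence below, and counts of genes are also given without it. A few ubiquitous genes elsewhere were low as well. The elongation factor subunit EEF1G had 1 read, and 99.9% of its exon bases overlap another gene in GENCODE 29. The proteasome chaperone PSMD5 had 4 reads and the nuclear m6A reader YTHDC1 had 8 reads. Outside the stretch, genes whose exons overlap other genes over more than 75% of their length had a median of 0.118 CPM (216 genes, 48.1% at 0 reads). Those without overlap had a median of 7.18 CPM (10284 genes, 27.3% at 0 reads). Levels did not fall steadily with overlap. The median was 29.1 CPM at overlaps above 0 to 10% (10.1% at 0 reads) and 18.8 CPM above 10 to 50% (12.5% at 0 reads). Above 50 to 75% it was 3.88 CPM (19.8% at 0 reads). Whether overlap or copies caused the low counts was not tested.

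Over all genes, 12056 of 18257 (66.0%) reached 1 CPM in the mock, 9669 (53.0%) reached 10 CPM and 2736 (15.0%) reached 100 CPM. Another 3926 genes (21.5%) had 0 reads, and 2275 (12.5%) had reads but stayed under 1 CPM. Without the stretch on chromosome 6 the shares were 66.5% at 1 CPM or more, 53.4% at 10 CPM or more, 15.1% at 100 CPM or more and 21.0% at 0 reads. The median over all genes was 13.4 CPM. The distribution of levels had 1 broad peak between 10 and 100 CPM, the class with most genes (6933, 38.0%), and a separate block at 0. The limit of 1 CPM fell between them, and 607 genes lay within 3 reads of it. At the limit, 83 genes had 9 reads and were counted as reaching it, and 125 had 8 reads and were not. In the siRNA libraries, 12055 to 12122 genes reached 1 CPM and 3839 to 3973 had 0 reads. Of the 12056 genes, 11734 reached 1 CPM in all 5 libraries. Of the 3926 genes at 0, 2602 had 0 reads in all 5 libraries and 3 reached 1 CPM in any other. Among genes of at least 10 CPM in the mock, the highest of the 5 libraries exceeded the lowest by a median factor of 1.21, with a 95th percentile of 1.66.

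**Figure D1:**
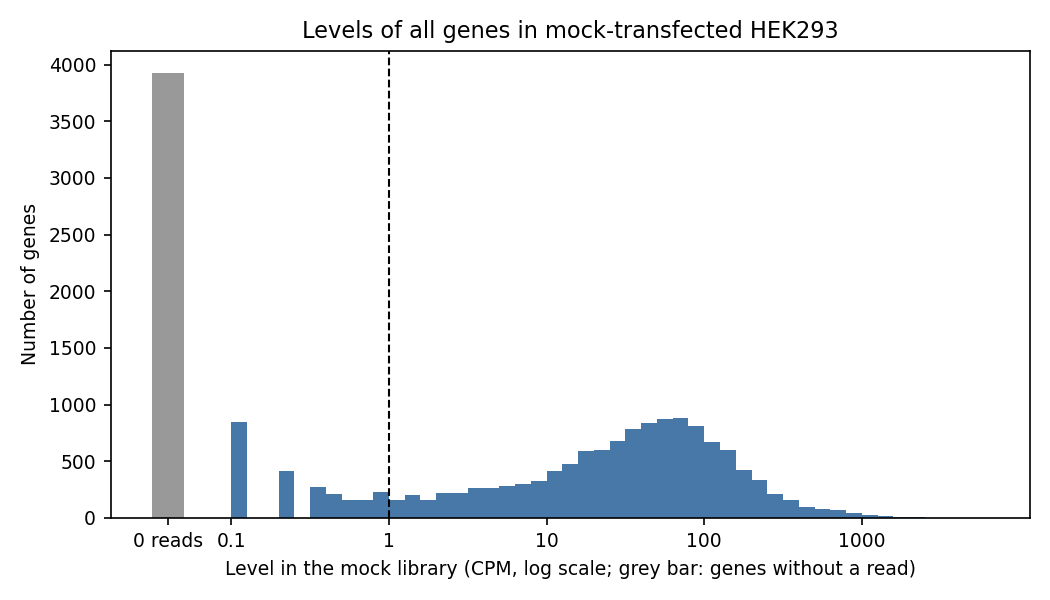
Number of genes by level in the mock library (CPM, log scale), with the grey bar for the 3926 genes at 0 reads and the dashed line at 1 CPM. The 12056 genes at 1 CPM or more form 1 broad peak, and the 2275 genes between it and the block at 0 sit at levels of a few reads.

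Reads were spread widely. The most abundant gene took 0.456% of them, the top 10 took 2.90%, the top 100 took 12.9% and the top 1000 took 44.1%. It took 1315 genes to hold 50% of the reads and 5982 to hold 90%. The 56 genes of at least 1000 CPM held 8.94%. The gene with most reads was EEF2, the translocase of translation elongation, with 38781 reads (4564 CPM, 4519 to 4610). ENO1, the enolase of glycolysis, followed with 36440 reads (4289 CPM), and the chaperone HSP90AA1 with 29494 reads (3471 CPM). RPS4X (2875 CPM) and RPS19 (2402 CPM) of the small ribosomal subunit, cytoplasmic actin ACTG1 (2846 CPM), the RNA-binding protein HNRNPA2B1 (2293 CPM), the ribosome scaffold GNB2L1 (RACK1, 2289 CPM), nucleolin NCL (2087 CPM) and brain-type creatine kinase CKB (1917 CPM) completed the first 10. Among the leading genes per length were EEF2 (5086 TPM), RPS4X (4327 TPM), ACTG1 (4267 TPM), RPL8 (3698 TPM) and ENO1 (3647 TPM). CKB, which buffers ATP in brain and muscle, stood at 3223 TPM. RPS12, with 528 CPM, reached 3090 TPM, since its transcript is short. Long genes went the other way: PRKDC, the DNA-dependent protein kinase, had 1402 CPM and 408 TPM. IRS4, an insulin receptor substrate known for its abundance in HEK293 and chosen here after its value was seen, had 10089 reads (1187 CPM, 1356 TPM).

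Many genes of translation share a run of pyrimidines at the start of the RNA, the signal by which their translation is tuned to growth. Of the 30 genes with most reads, the start sites of 26 were read. Those of RPL8, RPL5, PRKDC and ATP5B were not read, so these genes are outside the tally. Of the 26 starts, 12 had such a run. It was found in 7 of 9 genes of ribosomal proteins, elongation and eIF4 factors, and in 5 of the 17 others. The 5 were GNB2L1, TPT1, the chaperone HSP90AB1 and the glycolytic genes LDHB and ALDOA. The rule lets a run begin before the listed start, and those of LDHB and ALDOA lie mostly before it. The windows below show 8 starts with a run and 4 without. Each is 30 bases from RefSeq (GRCh38.p14), 15 before the listed start and 15 from it on, with capitals for a run of at least 5 C or T that begins with C within 5 bases of the start.
EEF2, chr19:3985449-3985478, minus strand: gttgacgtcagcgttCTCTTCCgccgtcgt
RPS19, chr19:41860240-41860269, plus strand: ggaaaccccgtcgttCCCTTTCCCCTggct
GNB2L1, chr5:181243892-181243921, minus strand: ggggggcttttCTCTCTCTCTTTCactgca
RPS16, chr19:39435935-39435964, minus strand: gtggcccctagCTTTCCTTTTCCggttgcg
RPS6, chr9:19380222-19380251, minus strand: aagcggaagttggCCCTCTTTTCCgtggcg
TPT1, chr13:45341169-45341198, minus strand: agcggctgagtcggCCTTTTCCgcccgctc
RPS3, chr11:75399503-75399532, plus strand: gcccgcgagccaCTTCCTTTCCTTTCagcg
LDHB, chr12:21657828-21657857, minus strand: gccccctcctCCCTCCTTgcagagccggcg
ENO1, chr1:8878672-8878701, minus strand: gcgggcggcgcggacagtatctgtgggtac
GAPDH, chr12:6535249-6535278, plus strand: agcgggtgcatccctgtccggatgctgcgc
HNRNPA2B1, chr7:26200732-26200761, minus strand: agcggctctagcggcagtagcagcagcgcc
RPS4X, chrX:72277234-72277263, minus strand: gcagtctccagccccaatttctacgcgcac

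Of 65 cytosolic ribosomal protein genes with a matched start, 51 (78.5%) had such a run. It was found in 6 of 14 elongation and eIF4 factors (42.9%), in 25.2% of genes of at least 100 CPM and in 22.2% of all 13964 matched starts. The counted run of GNB2L1 is 13 bases long and that of RPS3 is 14. Before the counted runs of GNB2L1 and LDHB, further C and T lie outside the search limit. Among glycolytic genes LDHB and ALDOA had a run, of 8 and 7 bases, while ENO1 and GAPDH had none. RPS4X, the ribosomal protein gene with most reads, had none at its listed start. A run is a description of the listed start, and a missing one says only that these letters are not in this window.

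The machinery of protein synthesis was close to complete. Y-linked members were left out here and in all family counts. Cytosolic ribosomal protein genes had 80 of 85 members at 1 CPM or more (80 of 84 outside the chromosome 6 stretch). Of the 85, 66 reached 100 CPM, and the median was 407 CPM. Many have processed copies in the genome, whose sequence is nearly that of the gene. The 46 genes with fewer than 10 named pseudogenes had a median of 592 CPM (807 TPM), the 27 with 10 or more but under 25 had 354 CPM (405 TPM) and the 12 with 25 or more had 108 CPM (82.6 TPM). The last class was wide, from 6.94 to 1296 CPM (10.7 to 1565 TPM), so single genes did not follow the order of the medians. RPL7, with 61 named pseudogenes, had 59 reads (6.94 CPM), whereas RPL7A, with 37, had 5858 reads (689 CPM) and RPSA, with 74, had 2394 reads (282 CPM). The part of the copies in these levels was not tested, and unequal levels of ribosomal proteins are uncertain. The 76 mitochondrial ribosomal protein genes had 74 members at 1 CPM or more and a median of 73.7 CPM, with MRPL37 at 281 CPM. All 13 subunits of initiation factor 3 reached 1 CPM (median 297 CPM), and EIF3A had 698 CPM. Of 19 elongation, eIF4 and poly(A)-binding genes, 17 reached 1 CPM. EEF1A1, which carries tRNAs to the ribosome, had 751 CPM, with 39 named pseudogenes. All 32 nucleolar, hnRNP and splicing genes reached 10 CPM, with a median of 557 CPM, and all 12 SRSF splicing factors did so, with a median of 355 CPM.

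Genes of cell division were uniformly on. All 36 listed genes of replication and division reached 1 CPM, and 30 reached 100 CPM (median 206 CPM). The helicase subunit MCM7 had 10379 reads (1221 CPM), topoisomerase TOP2A 8194 reads (964 CPM) and the proliferation marker MKI67 7027 reads (827 CPM). Heat shock proteins and chaperonins had 24 of 25 members at 1 CPM or more and a median of 663 CPM. The 1 member at 0 was HSPA1A, which lies in the chromosome 6 stretch. Glycolysis had 23 of 31 members (74.2%, against 66.0% of all genes) at 1 CPM or more. Its lactate dehydrogenase LDHB had 1791 CPM, and the aldolase ALDOA had 1334 CPM. HK3 of myeloid cells and PGK2 of sperm had 0 reads. The proteasome had 34 of 39 subunits at 1 CPM or more (median 190 CPM), or 34 of 37 outside the chromosome 6 stretch. Complex I of the respiratory chain had 36 of 37 (median 80.4 CPM). Beta-tubulin was carried by TUBB4B (713 CPM, 1515 TPM) and TUBB6 (134 CPM, 146 TPM), and alpha-tubulin by TUBA1B (233 CPM, 293 TPM), while the count of TUBB is unusable for the reason above. Fetal RNA-binding and chromatin proteins were well expressed. The let-7 antagonist LIN28B had 127 CPM (119 to 134), the chromatin proteins HMGA1 and HMGA2 468 and 175 CPM and the mRNA-binding protein IGF2BP1 350 CPM, while LIN28A had 0 reads.

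Of 94 kidney marker genes in 7 lists, 36 (38.3%) reached 1 CPM, 11 reached 10 CPM and none reached 100 CPM. Another 30 had 0 reads. The shares over all genes were 66.0% at 1 CPM or more and 21.5% at 0. The median of the kidney genes was 0.235 CPM (0.23 TPM), and that of all genes 13.4 CPM (11.2 TPM). The siRNA libraries each had 35 of the 94 at 1 CPM or more. The list of early patterning regulators held 17 of the 36 members at 1 CPM or more and 3 of the 30 at 0, and the proximal tubule list held 8 of the 36 and 8 of the 30. In the plot of marker lists each gene is a point, and the kidney lists thin out from the patterning genes to the segments.

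**Figure D2:**
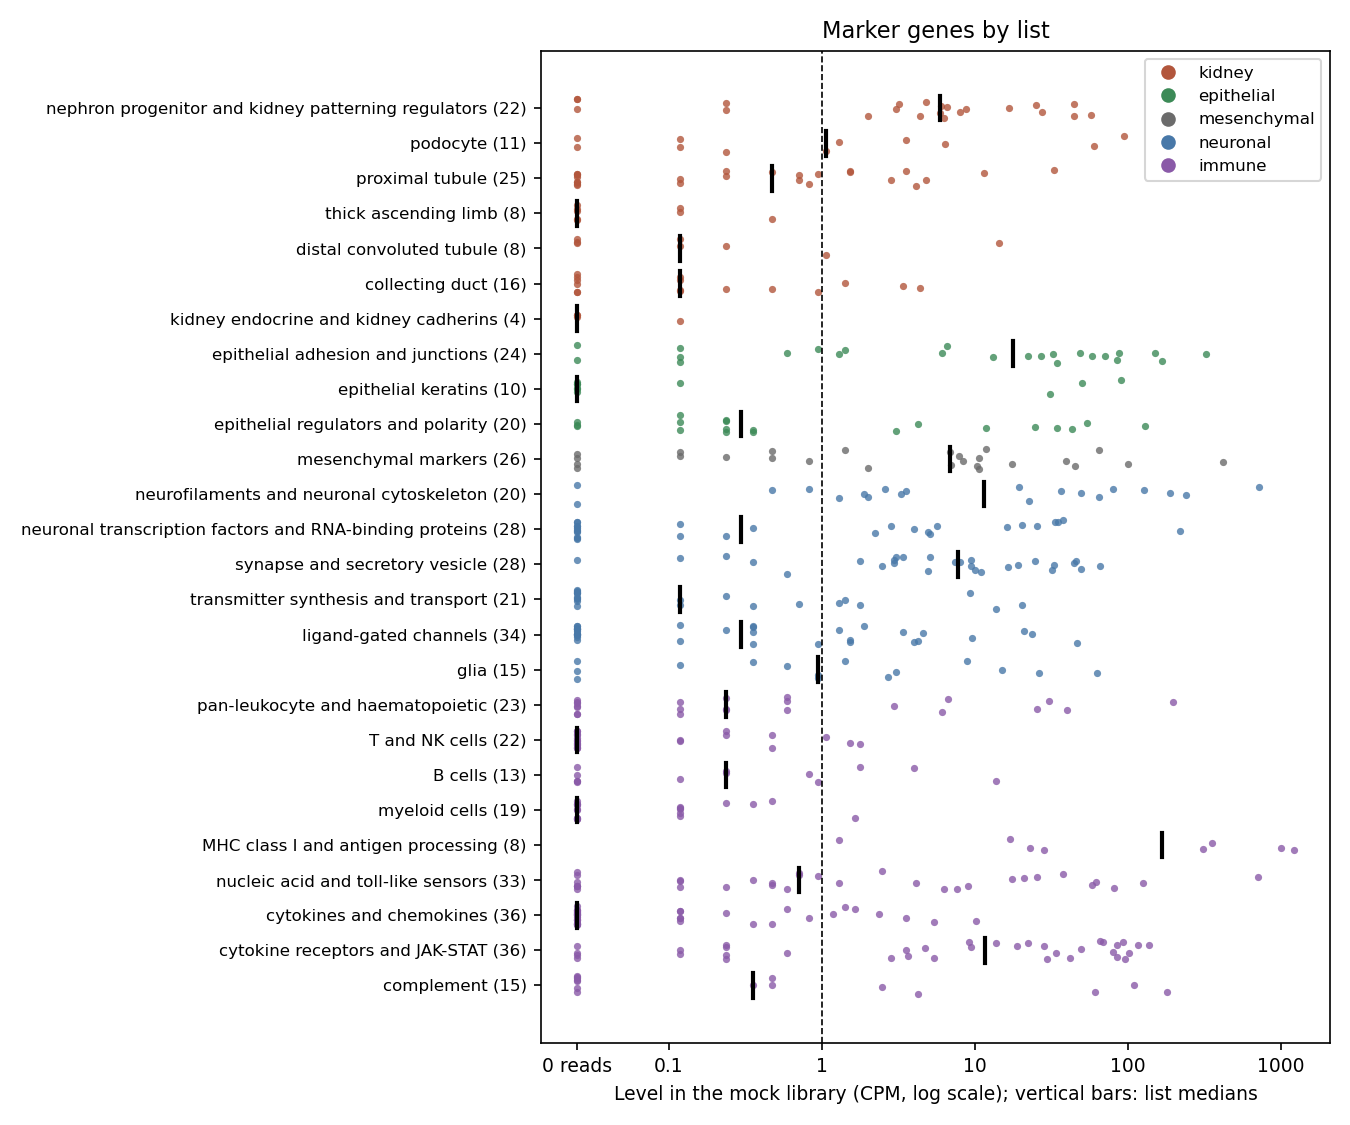
Level of each marker gene in the mock library (CPM, log scale), by list, with colour for the area of each list, black bars at list medians, genes at 0 reads at the left edge and genes of the chromosome 6 stretch left out. The patterning and junction lists have most members right of 1 CPM, whereas all 8 genes of the thick ascending limb list stand left of it.

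Among 22 regulators of nephron progenitors and kidney patterning, 17 reached 1 CPM, with a median of 5.94 CPM. SALL1, a zinc finger factor needed for the kidney to form, had 490 reads (57.7 CPM, 52.7 to 63.0). HOXA11 had 44.7 CPM (87.0 TPM) and HOXD11 27.4 CPM (58.3 TPM), a pair of factors required together for the metanephros. The stromal factor FOXD1 had 24.9 CPM and GATA3, a factor of the ureteric duct, 16.8 CPM. PAX2, a factor of the duct and the early nephron, had 37 reads (4.35 CPM, 3.07 to 6.0). Its relative PAX8, a marker of renal epithelium, had 0 reads, as had the duct signal WNT9B and the distal nephron factor TFAP2B. In genes chosen after their values were seen, the nephron regulator WT1 had 74 reads (8.71 CPM), and WNT4, needed for the nephron to become epithelial, had 2 reads. The embryonic genes present thus include stromal, mesenchymal and ductal regulators, and several of the genes of the epithelial nephron were at or near 0.

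Podocyte markers were split. PODXL, the sialomucin of the podocyte surface that other cells also carry, had 807 reads (95 CPM, 88.5 to 102). KIRREL, a slit diaphragm adhesion protein, had 510 reads (60.0 CPM). The podocyte receptor PLA2R1 had 0 reads, and NPHS1 (nephrin), the core of the slit diaphragm, chosen after its value was seen, had 1 read. In all, 6 of 11 members (54.5%, against 66.0% of all genes) reached 1 CPM.

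In the proximal tubule list 8 of 25 members reached 1 CPM. LRP2 (megalin, the endocytic receptor of the brush border) had 281 reads (33.1 CPM, 29.3 to 37.2). Over its long transcript this is 9.13 TPM. Its partner cubilin (CUBN), chosen after its value was seen, had 7 reads (0.824 CPM). The bicarbonate carrier SLC4A4 had 11.4 CPM, the vitamin D activating enzyme CYP27B1 4.83 CPM and the brush border peptidase MME 4.12 CPM. HNF4A, a transcription factor which directs the proximal tubule programme and was chosen after its value was seen, had 1 read. A further 8 genes of reabsorption and gluconeogenesis had 0 reads. They were the phosphate carrier SLC34A1, the anion carriers SLC22A6 and SLC22A8, the urate carrier SLC22A12, the lactate carrier SLC5A12, the gluconeogenic enzymes FBP1 and G6PC and the inositol oxygenase MIOX.

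Further along the nephron fewer genes were found. None of 8 thick ascending limb genes reached 1 CPM, and uromodulin (UMOD), the salt carrier SLC12A1, the tight junction proteins CLDN16 and CLDN19 and the calcium-sensing receptor CASR had 0 reads. In the distal tubule list 2 of 8 did, the magnesium protein CNNM2 (14.5 CPM) and the magnesium channel TRPM6 (1.06 CPM), which had 9 reads and stayed at 0.483 to 0.787 CPM in the siRNA libraries. The thiazide-sensitive carrier SLC12A3, the calcium channel TRPV5 and the exchanger SLC8A1 had 0 reads. In the collecting duct list 3 of 16 reached 1 CPM: HSD11B2, which shields the mineralocorticoid receptor from cortisol, at 4.35 CPM, the water channel AQP3 at 3.41 CPM and the proton pump subunit ATP6V1B1 at 1.41 CPM, with 62.4% of its exon bases overlapping another gene. The vasopressin-regulated channel AQP2 and the intercalated cell factor FOXI1 had 0 reads, as had ELF5, FXYD4, ATP6V0D2 and ATP6V1G3. The kidney cadherins CDH16 and CDH6 had 0 reads, and erythropoietin (EPO) had 1.

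Promoters of 3 kidney segment genes at 0 reads carry a TATA box, the element bound by the TATA-binding protein at regulated promoters. These 30-base windows from RefSeq (GRCh38.p14) are shown with the letters TATAAA in capitals, for those 3 and for 1 gene at 0 reads from each of an epithelial, a neuronal and a myeloid list.
SLC34A1, chr5:177384391-177384420, plus strand: ttgacccaagagTATAAAgaggagggtctc
SLC12A3, chr16:56865164-56865193, plus strand: gcagacgcagccTATAAAaccaccctgtgt
AQP2, chr12:49950696-49950725, plus strand: atggaaggacccTATAAAtgcccacaaccc
ELF3, chr1:202010541-202010570, plus strand: caggggacacacTATAAAgccctgagctca
TPH2, chr12:71938804-71938833, plus strand: tccagtcattcaTATAAAggagcccgggga
S100A9, chr1:153357813-153357842, plus strand: tcaggagctgccTATAAAtgccgagcctgc

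The letters TATAAA lay between -45 and -15 of the listed start, on the sense strand, in 3.54% of all matched promoters and in 9.72% of those of genes at 0 reads. SLC34A1, SLC12A3 and AQP2 belong to the proximal tubule, the distal tubule and the collecting duct. ELF3 is an epithelial factor, TPH2 makes serotonin in neurons and S100A9 is a myeloid protein. The share in promoters of kidney genes was 14.3% of 21 at 0 reads and 12.5% of 24 at 1 CPM or more, so in that area the 2 classes lay close together.

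Epithelial genes were partly present. Of 54, 28 (51.9%, against 66.0% of all genes) reached 1 CPM and 11 had 0 reads, and the siRNA libraries had 26 to 29 at 1 CPM or more. Junction genes had 17 of 24 at 1 CPM or more and a median of 17.7 CPM (13.9 TPM), above the medians of the regulators (0.506 TPM) and of the keratins (0 TPM). Desmoplakin (DSP), which anchors keratins to desmosomes, had 2756 reads (324 CPM, 312 to 337), and the desmosomal cadherin DSG2 had 169 CPM. The tight junction scaffold TJP1 had 151 CPM, the adhesion protein EPCAM 745 reads (87.7 CPM, 156 TPM) and plakoglobin JUP 70.5 CPM. E-cadherin (CDH1), chosen after its value was seen, had 12 reads (1.41 CPM, 0.73 to 2.47), while N-cadherin (CDH2) had 856 reads (101 CPM, 94.1 to 108). Per length these are 1.03 TPM for CDH1 and 91.3 TPM for CDH2. Of the keratins of simple epithelia, KRT8 had 90.1 CPM (83.9 to 96.8), KRT18 50.4 CPM and KRT19 31.0 CPM. KRT8 and KRT18 have 50 and 67 named pseudogenes, so their counts are uncertain. KRT7 of simple ducts, KRT5, KRT14 and KRT15 of basal layers, and KRT20 and KRT23 had 0 reads. Of the regulators, 8 of 20 reached 1 CPM. The protease inhibitor SPINT2 had 130 CPM and the splicing regulator ESRP2 54.0 CPM, whereas GRHL2, ELF3 and EHF, factors that maintain epithelia, had 0 reads.

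Of 26 mesenchymal markers, 16 (61.5%) reached 1 CPM, a share near the 66.0% of all genes, and 4 had 0 reads (15.4%, against 21.5%). Their median was 6.88 CPM (4.72 TPM), and that of all genes 11.2 TPM. Vimentin (VIM) had 3548 reads (418 CPM, 363 TPM) and fibronectin (FN1) 65.0 CPM. ZEB1 and ZEB2, repressors of E-cadherin, had 45 and 39.3 CPM, and the matrix protein TNC had 17.5 CPM. Fibroblasts also carry VIM, FN1 and TNC. The 4 members at 0 reads were the cadherin CDH11, collagen COL1A2, the surface protein THY1 and decorin (DCN). The collagens with most reads were the basement membrane collagens COL4A1 (146 CPM) and COL4A2 (119 CPM), followed by cartilage collagen COL2A1 (86.6 CPM). Per length COL2A1, at 58.3 TPM, stood above COL4A1 (44.4 TPM) and COL4A2 (27.7 TPM).

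The HOX genes, which give cells their position along the body axis, were almost all on. Of 39, 34 (87.2%, against 66.0% of all genes) reached 1 CPM and 30 reached 10 CPM, with a median of 20.9 CPM. HOXB9 had 1296 reads (153 CPM, 265 TPM), HOXA9 110 CPM (163 TPM) and HOXA10 107 CPM (129 TPM). The most posterior genes were on too, with HOXA13 at 95.6 CPM and HOXD13 at 84.4 CPM. HOXB1 and HOXC12 had 0 reads. Per length, the median of paralogs 9 to 13 was 108 TPM in the HOXA cluster (4 genes), 140 TPM in HOXB (2 genes), 34.7 TPM in HOXC (5 genes) and 75.1 TPM in HOXD (5 genes). For paralogs 1 to 4 it was 15.7, 30.4, 86.4 and 2.14 TPM in the same order of clusters. The medians of paralogs 1 to 4 were thus below those of 9 to 13 in HOXA, HOXB and HOXD and above them in HOXC, where 1 gene stands for that class. HOX genes overlap antisense transcripts, and without strand the reads of the partners cannot be told apart.

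**Figure D3:**
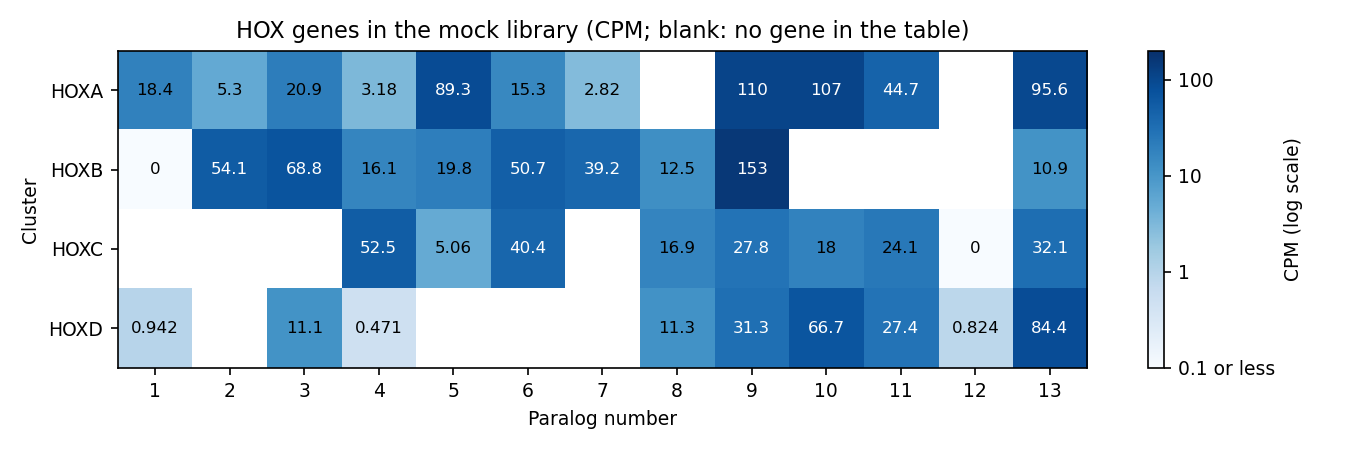
Level of each HOX gene in the mock library (CPM, number in each square; colour on a log scale), by cluster and paralog number, with blanks where the table has no gene. The darkest squares are HOXB9 at 153 CPM and HOXA9 at 110 CPM, and the palest are HOXB1 and HOXC12 at 0.

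Neuronal genes differed by class. Of 147 in 6 lists, which include glial genes, 77 (52.4%) reached 1 CPM, below the 66.0% of all genes, and 42 had 0 reads (28.6%, against 21.5%). The siRNA libraries had 77 to 79 at 1 CPM or more. The lists of the synapse and of the neuronal cytoskeleton were above the share of all genes at this limit, and the other 4 lists were below it. By median level the synapse (5.19 TPM) and cytoskeleton (6.22 TPM) lists were below all genes (11.2 TPM). In the cytoskeleton 16 of 20 reached 1 CPM. The neuronal ubiquitin hydrolase UCHL1 had 6103 reads (718 CPM, 1412 TPM). MAP1B, a microtubule protein of growing axons, had 239 CPM, and the growth cone protein DPYSL3 188 CPM. Among intermediate filaments of neurons, NEFL had 1080 reads (127 CPM, 120 to 135) and INA 677 reads (79.7 CPM). The stathmin STMN3 had 64.7 CPM in the mock but ranged from 21.9 to 112 CPM in the siRNA libraries. Effects of the siRNAs and differences between libraries cannot be told apart in that range. A single mock library does not show how far its level moves without siRNA. DCX of migrating neurons and the stathmin STMN2 had 0 reads. The axonal kinesin KIF1A had 364 CPM.

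Of synaptic genes 23 of 28 (82.1%) reached 1 CPM, with a median of 7.71 CPM (5.19 TPM). The scaffold HOMER1 had 65.7 CPM, the vesicle protein VAMP2 49.8 CPM and the adhesion protein NLGN2 46.0 CPM. Synaptophysin (SYP) had 32.7 CPM, with 19.8 to 80.9 CPM in the siRNA libraries. Transcription factors and RNA-binding proteins were mixed, with 13 of 28 at 1 CPM or more. RBFOX2, a splicing regulator that many tissues carry, had 218 CPM and the neuronal RNA-binding protein ELAVL2 37.5 CPM. The factors POU3F2 (34.7 CPM), PAX6 (33.7 CPM), POU4F1 (25.4 CPM) and SOX2 (20.5 CPM) of the developing nervous system were on. The proneural factors NEUROG1 and ATOH1, the sympathetic factor PHOX2A, and MYT1L, SOX1, SOX11, TBR1, ELAVL4 and RBFOX1 had 0 reads.

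Transmission itself was sparse. Of 21 genes of transmitter synthesis and transport, 6 reached 1 CPM. GAD1, which makes GABA, had 172 reads (20.2 CPM, 17.3 to 23.5), and the glycine carrier SLC6A9 9.30 CPM in the mock and 14.0 to 26.4 CPM in the siRNA libraries. The vesicular monoamine carrier SLC18A2 had 13.8 CPM, with 56.1% of its exon bases overlapping another gene. The catecholamine enzymes TH and DBH, the acetylcholine enzyme CHAT, the carriers SLC6A2, SLC6A3, SLC18A1, SLC18A3, SLC17A6 and SLC17A8, and the serotonin enzyme TPH2 had 0 reads. Of 34 ligand-gated channel subunits 12 reached 1 CPM and 14 had 0 reads. The GABA receptor subunits GABRA2, GABRA3, GABRA4, GABRA5 and GABRB1 had 0 reads. The glycine receptor beta subunit GLRB had 20.8 CPM and the nicotinic subunit CHRNA5 23.7 CPM. AMPA receptor subunits GRIA1, GRIA2 and GRIA3 had 0 reads. In glia, the glutamate carrier SLC1A3 had 62.7 CPM and PMP22 26.1 CPM, and the myelin gene MAG and the factor SOX10 had 0 reads.

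The adrenal cortex, a neighbour of the embryonic kidney, was examined by its steroid pathway. Of 13 genes, 2 reached 1 CPM, the mitochondrial electron carriers FDX1 (43.0 CPM) and FDXR (38.7 CPM), which other tissues also use. The regulators NR5A1 and NR0B1, the receptor MC2R and the enzymes CYP11A1, CYP11B1, CYP11B2, HSD3B1 and HSD3B2 had 0 reads.

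Immune genes were given without the chromosome 6 stretch where that matters. Of 239 genes, 82 (34.3%) reached 1 CPM and 92 had 0 reads. Outside the stretch it was 74 of 207 (35.7%, against 66.5% of all genes outside it), with 72 at 0. The siRNA libraries had 83 to 84 of the 239. Markers of blood cells were rare. The tyrosine phosphatase PTPRC (CD45), carried by all leukocytes, and the myeloid and B cell factor SPI1 had 0 reads, as had CD53 and CD48. Of T and NK cell genes 3 of 22 reached 1 CPM, namely CD4 (15 reads, 1.77 CPM), CD8A (13 reads, 1.53 CPM) and FOXP3 (9 reads, 1.06 CPM), and all 3 intervals reach below 1 CPM. The T cell receptor chains CD3D, CD3E and CD3G had 0 reads. Of B cell genes 3 of 13 reached 1 CPM, led by the complement receptor CR2 (116 reads, 13.7 CPM, 11.3 to 16.4). PAX5 had 4.0 CPM in the mock and 2.43 to 13.4 CPM in the siRNA libraries, and the B cell antigens MS4A1 and CD22 had 0 reads. Of myeloid genes 1 of 20 reached 1 CPM, CD14 with 14 reads (1.65 CPM).

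A few genes known from blood cells were clearly on in spite of this. The actin-bundling protein LCP1 (L-plastin) had 1667 reads (196 CPM, 187 to 206, 174 TPM). The transcription factor RUNX3 had 40.2 CPM, the stem cell factor receptor KIT 30.7 CPM and beta-globin (HBB) 215 reads (25.3 CPM, 22.0 to 28.9). HBB had 21.6 to 26.6 CPM in the siRNA libraries, so its reads were not those of 1 library. The fetal globins HBG1 and HBG2 and the erythroid factor KLF1 had 0 reads.

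Innate sensing was present in its shared parts and thin in its toll-like receptors. Of 33 sensor genes 15 (45.5%, against 66.0% of all genes) reached 1 CPM. The kinase IRAK1 had 710 CPM, the double-stranded RNA kinase EIF2AK2 127 CPM, the mitochondrial adaptor MAVS 81.4 CPM, the kinase TBK1 62.4 CPM and the factor IRF3 58.6 CPM. Toll-like receptors TLR2, TLR4, TLR7 and TLR8 had 0 reads, and TLR6 (2.47 CPM) and TLR5 (1.29 CPM) were the 2 of 10 at 1 CPM or more. The inflammasome genes AIM2 and CASP1 had 0 reads, and PYCARD did too, with 59.7% of its exon bases overlapping another gene. In genes chosen after their values were seen, the DNA sensor MB21D1 (cGAS) had 4 reads (0.471 CPM), while its downstream adaptor TMEM173 (STING) had 217 reads (25.5 CPM). The RNA sensors DDX58 and IFIH1 had 65 and 53 reads, both above 1 CPM.

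Few cytokines were found: 7 of 39 reached 1 CPM and 22 had 0 reads, with TNF, LTA and LTB among the latter but inside the chromosome 6 stretch. CSF1 had 10.2 CPM and LIF 5.41 CPM. IL6, IL10, IFNB1, IFNG, CSF2, CCL2, CCL5 and CXCL10 had 0 reads, and so did all 13 alpha interferons. Over whole families IL17D (298 reads, 35.1 CPM) led the interleukins and CXCL16 (26.8 CPM) the chemokines. Of cytokine receptors and their kinases 25 of 36 (69.4%) reached 1 CPM, close to the 66.0% of all genes, and 7 of 39 cytokines is 17.9%. The median of the receptors and kinases was 11.6 CPM. STAT3 had 138 CPM, JAK1 116 CPM, TYK2 102 CPM, the interferon receptor IFNAR1 93.6 CPM and the LIF receptor LIFR 84.7 CPM. Of complement genes outside the chromosome 6 stretch 5 of 15 (33.3%) reached 1 CPM and 7 had 0 reads. The other 4 listed, C2, C4A, C4B and CFB, lie in the stretch, and their 0 reads are not read. The surface proteins that protect cells from complement were on, with CD46 at 180 CPM, CD59 at 109 CPM and CD55 at 60.6 CPM.

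Class I antigen presentation outside the stretch was complete in the listed parts, with 8 of 8 genes at 1 CPM or more. Beta-2 microglobulin (B2M) had 3021 reads (356 CPM) and the chaperones CANX and CALR 1221 and 1009 CPM. Inside the stretch HLA-B had 311 reads (36.6 CPM) and HLA-C 21.7 CPM, while TAP1, PSMB8, PSMB9 and HLA-E had 0. With RPS18 at 0 reads in the same stretch, these levels are uncertain. Of class II, HLA-DQB1 had 18.0 CPM and HLA-DRB1 12.8 CPM, while HLA-DRA had 0. The class II master regulator CIITA and the invariant chain CD74, which lie elsewhere in the genome, had 0.118 CPM (1 read) and 0.706 CPM. Class II genes resemble one another closely, so reads may have been assigned to a relative.

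Of markers of other organs, 20 of 85 (23.5%, against 66.0% of all genes) reached 1 CPM and 45 had 0 reads. In the liver list 1 of 11 reached 1 CPM, CYP2E1 with 13 reads (1.53 CPM), and albumin (ALB), APOA1, APOB and TTR had 0 reads. The intestinal factor CDX2 had 204 reads (24.0 CPM) and the stem cell receptor LGR5 371 reads (43.7 CPM), while CDX1 and the mucin MUC2 had 0 reads. The adipocyte factors PPARG and CEBPA had 23.9 and 36.8 CPM, and the adipocyte genes ADIPOQ, LEP and FABP4 had 0 reads. CEBPA overlaps another gene over 43.4% of its exon bases. Of pluripotency and germ cell genes 4 of 20 reached 1 CPM, and NANOG, ZFP42, DAZL and DDX4 had 0 reads. The tumour antigen PRAME had 29.7 CPM. In endothelium EGFL7 had 27.0 CPM and FLT1 14.2 CPM, whereas CDH5 and TEK had 0 reads. In muscle the embryonic myosin MYH3 had 6.71 CPM, and MYOG, MYF5 and TNNT2 had 0 reads.

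The line is widely used to study receptors and channels, so its own were counted. Of 60 rhodopsin-type receptors, 24 (40.0%, against 66.0% of all genes) reached 1 CPM, none reached 100 CPM and 20 had 0 reads. The protease-activated receptors F2RL1 and F2R had 55.3 and 49.0 CPM, the nucleotide receptors P2RY11 and P2RY1 25.9 and 21.9 CPM, the lysophosphatidic acid receptor LPAR3 18.9 CPM and the chemokine receptor CXCR4 16.6 CPM. P2RY11 overlaps another gene over 59.2% of its exon bases. The muscarinic receptors CHRM1, CHRM2 and CHRM5, the opioid receptors OPRM1 and OPRK1, the serotonin receptors HTR1A and HTR2A, the angiotensin receptor AGTR1 and the vasopressin receptor AVPR1A had 0 reads. Of 38 G proteins, cyclases, arrestins and receptor kinases, 29 (76.3%) reached 1 CPM. GNAS, the stimulatory alpha subunit, had 1117 CPM.

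Of 31 voltage-gated sodium and calcium channel genes 18 (58.1%, against 66.0% of all genes) reached 1 CPM. Their median was 3.77 CPM (1.35 TPM), and that of all genes 13.4 CPM (11.2 TPM). The auxiliary subunit CACNA2D1 had 54.0 CPM, the T-type channel CACNA1H 18.8 CPM and the neuronal sodium channel SCN8A 14.6 CPM. Of potassium channel subunits fewer did, with 34 of 92 (37.0%) at 1 CPM or more and none at 100 CPM (KCNK1 had 30.7 CPM). Channels of stores, force, volume and acid had 28 of 36 (77.8%) at 1 CPM or more. The inositol trisphosphate receptor ITPR3 had 189 CPM, the force-gated channel PIEZO1 171 CPM, the scramblase ANO6 97.9 CPM and the ryanodine receptor RYR2 of heart and brain 822 reads (96.7 CPM, 90.2 to 104).

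In growth signalling 3 lists were above the 66.0% of all genes and 1 was not. Wnt receptors and effectors had 29 of 31 members (93.5%) at 1 CPM or more, with beta-catenin (CTNNB1) at 501 CPM. TGF-beta and BMP genes had 29 of 30 (96.7%), with SMAD5 at 226 CPM and the kidney growth factor BMP7 at 114 CPM, and Notch and Hedgehog genes 20 of 24 (83.3%), with NOTCH2 at 251 CPM. Of 39 receptor tyrosine kinases 24 (61.5%) reached 1 CPM, near the share of all genes. FGFR1 had 130 CPM, MET, the hepatocyte growth factor receptor, 117 CPM and IGF1R 110 CPM.

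Gene families ranged from nearly all on to all off, as the plot of families shows. Of 48 families, 14 had 80% or more of their members at 1 CPM or more, 14 had 20% or fewer and 20 lay between. Zinc finger genes named ZNF, many of them repressors of transcription, had 425 of 494 members at 1 CPM or more, but a median of 16.2 CPM. Solute carriers, one of the families between, had 222 of 365 (60.8%, against 66.0% of all genes). Among them the mitochondrial ADP/ATP carrier SLC25A5 had 633 CPM and the glutamine carrier SLC1A5 557 CPM. Of 23 claudins, the tight junction strands, 4 reached 1 CPM, led by CLDN12 (43.3 CPM) and CLDN15 (41.5 CPM). Of 55 keratins 5 did and 41 had 0 reads. Cadherins had 7 of 23, protocadherins 11 of 63 and connexins 5 of 20, with GJC1 at 102 CPM and GJA1 at 85.9 CPM. Cytochromes P450 had 19 of 55 (34.5%), with none at 100 CPM. The UGT family, which includes the glucuronosyltransferases of liver and kidney, had 1 of 21 (UGT3A2, 2.94 CPM). At the far end no olfactory receptor of 366 reached 1 CPM and 356 had 0 reads (344 of 354 outside the chromosome 6 stretch). None of 37 beta-defensins and none of 18 late cornified envelope genes of skin reached it. Of 87 keratin-associated proteins of hair 2 did, each at 1.06 CPM.

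**Figure D4:**
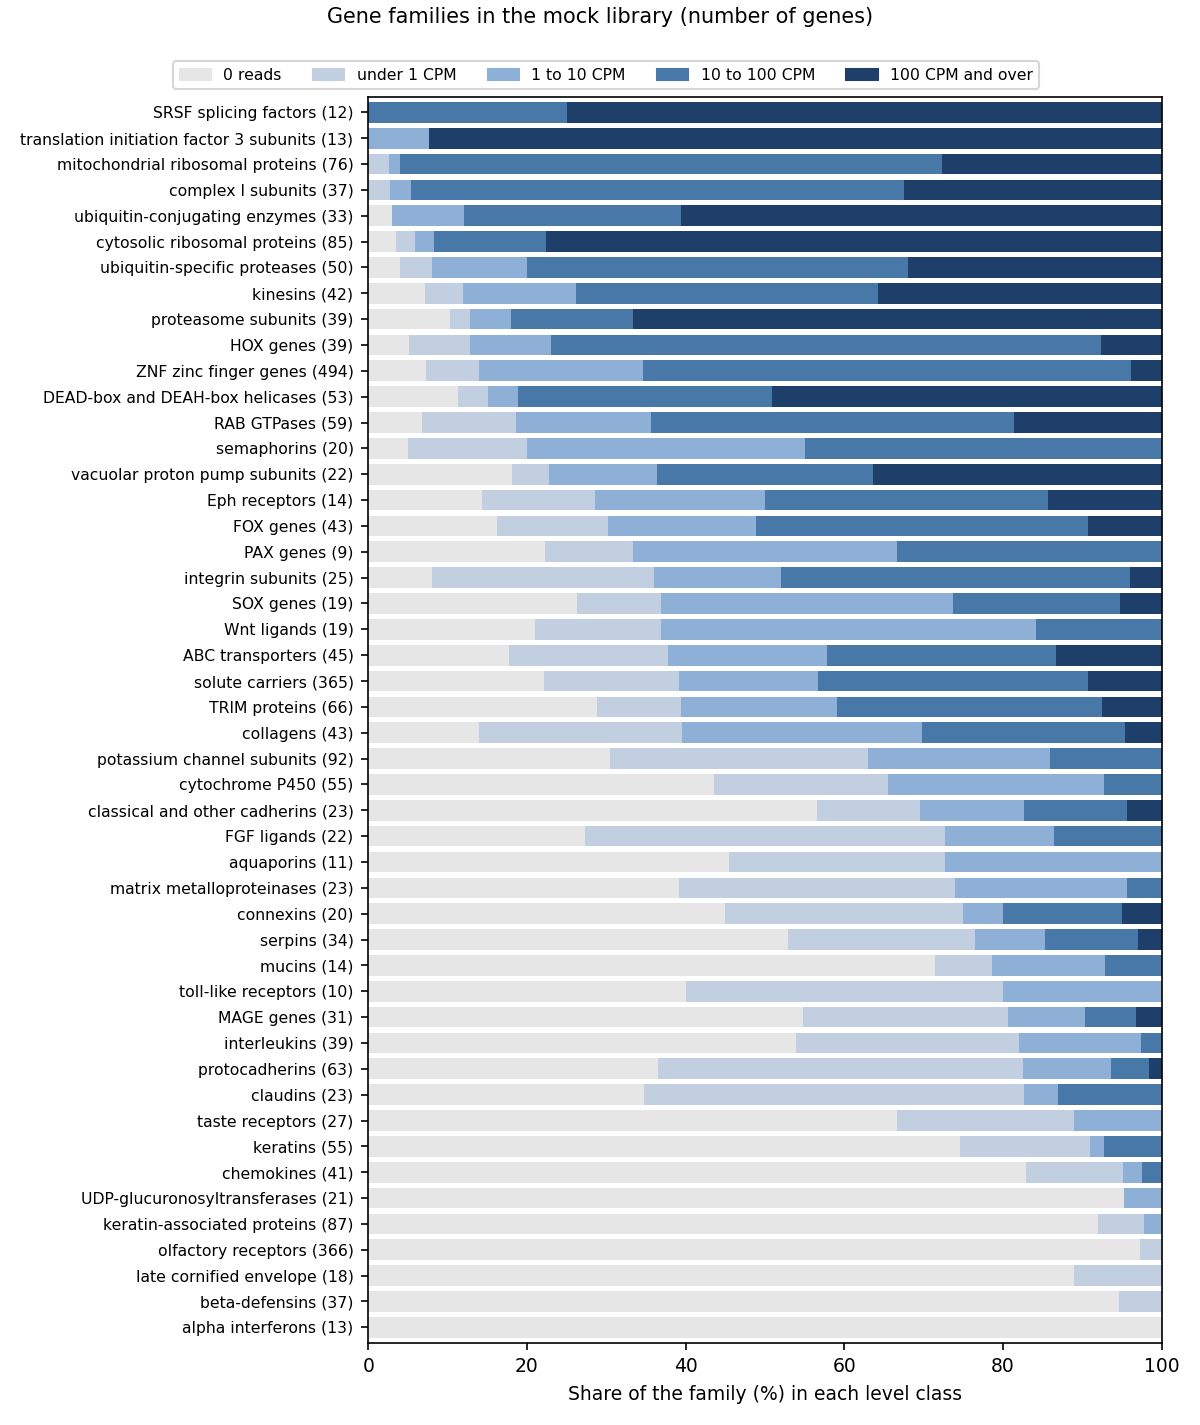
Share of each gene family in the mock library by level class (percent of members, stacked to 100), with the number of members beside each name and Y-linked genes left out. Ribosomal, proteasome and splicing families are nearly filled by the classes of 10 CPM and over, and olfactory receptors, alpha interferons and beta-defensins by the class of 0 reads.

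Some of the genes under 1 CPM lay in long runs along the chromosomes. Outside the chromosome 6 stretch and chromosome Y, 39 runs of at least 12 neighbouring genes under 1 CPM held 814 of 5954 such genes (13.7%), 727 of them at 0 reads. Most genes under 1 CPM were thus outside such runs. A run can hold a gene whose low count is doubtful, as YTHDC1, named above, in a run of 34 genes from GNRHR to AMTN on chromosome 4. The longest ran from OR4B1 to APLNR on chromosome 11, with 60 genes, all at 0 reads and most of them olfactory receptors. A run of 53 genes from FLG2 to S100A14 on chromosome 1 holds the epidermal differentiation genes, 46 of them at 0 reads. A run of 44 genes from KRT12 to KRT15 on chromosome 17 covers type I keratins and hair proteins (42 at 0), and a run of 25 from KRT80 to KRT78 on chromosome 12 covers type II keratins (19 at 0). On chromosome 5 the 30 protocadherins from PCDHA1 to PCDHB15 stayed under 1 CPM, with 16 at 0 reads. Neighbours in such runs are often copies of one another and are not independent genes.

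Promoter sequence, which played no part in choosing the library, differed in makeup between the level classes. Promoters of 300 bases, 250 before and 50 after the listed start, were matched for 13964 genes outside the chromosome 6 stretch. The CpG ratio, the observed number of CG pairs over that expected from the C and G content, had a median of 0.275 in genes at 0 reads (quartiles 0.139 and 0.525). It was 0.444 in genes under 1 CPM, 0.758 from 1 to 10 CPM, 0.85 from 10 to 100 CPM and 0.897 at 100 CPM or more (quartiles 0.788 and 0.997). A high ratio marks a CpG island. A ratio over 0.6 was found in 21.2% of promoters at 0 reads, in 93.3% of those at 100 CPM or more and in 67.3% of all. The GC box GGGCGG, the core of the site of SP1, was found on either strand in 27.0% of promoters at 0 reads, 74.3% of those at 100 CPM or more and 60.0% of all. The TATA letters went the other way, from 9.72% at 0 reads through 1.13% at 10 to 100 CPM to 1.5% at 100 CPM or more. CCAAT, the site of NF-Y, hardly differed, with 36.9% at 0 reads, 40.0% at 100 CPM or more and 36.3% of all. ACTACA, on either strand, was found in 7.79% at 0 reads, 9.78% at 100 CPM or more and 8.63% of all. GC content, length and shared clusters stand behind several of these shares at once, and the part of each was not tested.

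**Figure D5:**
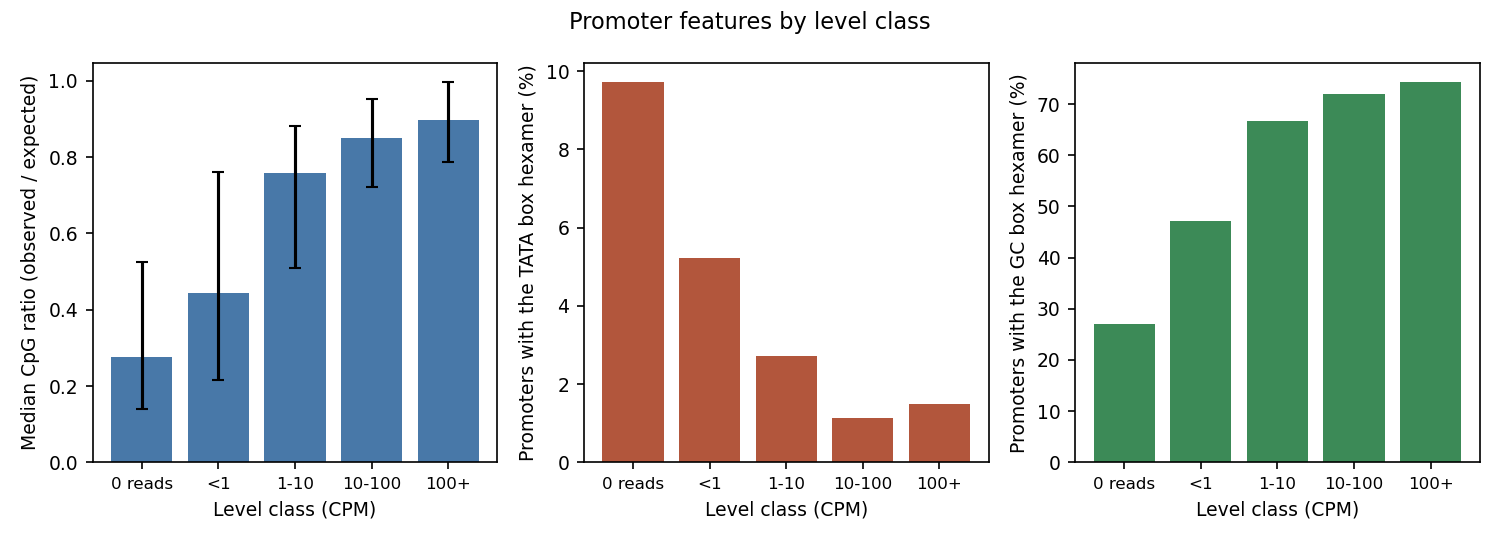
Promoters by level class of their gene in the mock library: median CpG ratio with bars from the lower to the upper quartile (left), share with TATAAA between -45 and -15 of the start (middle) and share with GGGCGG on either strand (right), both in percent. The CpG ratio rises from 0.275 to 0.897 and the TATA share falls from 9.72% at 0 reads to 1.5% at 100 CPM and over.

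Genes at 0 reads differed in CpG ratio between the areas of the marker lists. The median was 0.568 in machinery (6 promoters), 0.563 in neuronal genes (25), 0.345 in signalling (25), 0.329 in markers of other organs (32), 0.285 in epithelial (4), 0.282 in kidney (21), 0.232 in immune (50) and 0.154 in adrenal genes (6). Among members at 1 CPM or more it was 0.780 in neuronal, 0.775 in immune and 0.644 in kidney genes. The number of promoters in each is small, and no test was made.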

How the data were processed

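The authors deposited whole-number read counts, unnormalized, for each gene symbol and each of the 5 libraries (0 columns left unused). The genome build was hg19 and the tools included STAR, HTSeq, CASAVA 1.8.2 and edgeR, per the submitters' processing notes. Whether counting used strand, the annotation release and the handling of reads with several matches are not given in the sources used here. Replicate cultures are not described in the labels.

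From the mock counts, CPM was computed on the library total of 8497016 reads, without normalization factors, with exact Poisson 95% intervals (Python 3.11.15, scipy 1.17.1). On simulated counts for 18257 genes the intervals held the true level in 96.8% of genes. Symbols were matched to GENCODE 29 directly (17431) or through older symbols (728), and 98 were not matched. TPM used the union of a gene's exons. Promoters came from RefSeq (GRCh38.p14), whose coordinates are never mixed with the hg19 counts, and the first listed start was used. A gene counted as expressed at 1 CPM.

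There were 51 marker lists (1126 genes in the table) and 48 families by symbol. Members and lists were chosen with earlier results of these data known. The chromosome 6 stretch, the overlap and pseudogene classes, the pyrimidine run and the runs of neighbours under 1 CPM were chosen after seeing the data. Named genes were the 30 with most reads and the 30 highest in TPM, up to 6 members of a list with the highest CPM, any member at 0 reads, all members of lists or families of up to 10, up to 4 of each family, and DICER1, DROSHA and DGCR8. Ubiquitous genes with low counts, HOXD13, HOXB1 and HOXC12 were named after their values were seen. Motifs were searched on both strands, and the TATA letters also on the sense strand near the start. Motifs searched and not named are not reported. Alternatives were limits of 0.5 and 2 CPM, TMM factors (edgeR 4.0.16, R 4.3.3), a total without the 10 most abundant genes, each siRNA library in place of the mock, fewer reads, transcript length, 1 listed start, and all genes outside the stretch. Some members of the lists are not reported here.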

Additional observations from a re-analysis of the deposited data

How the results depend on the processing

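The mock is a single library, so its values carry counting error but no replicate error. No paired analysis was possible because the mock has no replicate and no result came from a test between groups. The number of genes at 1 CPM or more ran from 11545 at a limit of 2 CPM to 12597 at 0.5 CPM, and was 12056 with TMM factors and with a total without the 10 most abundant genes. Genes at 0 reads were 4507 as the number expected from 1/2 of the reads, and 5181 when fewer than 3 reads counted as 0. The share of reads in the 10 most abundant genes was 2.96% and 2.94% in the DICER1 siRNA libraries and 2.93% and 2.92% in the DROSHA siRNA libraries, against 2.90% in the mock, all beyond its counting interval. The median CpG ratio of promoters of genes at 100 CPM or more was 0.917 with 1 listed start only, an alternative chosen after seeing the data, against 0.897. The causes were not tested. Of 818 other counts of list and family members under the alternatives, 797 were within 1.5 times of the value given and 21 were not, among them T and NK cell, myeloid and liver genes, of which none reached 2 CPM. Levels near 1 CPM rest on 8 or 9 reads, and a count of 0 still allows a level of up to 0.353 CPM.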
